A study of Mus musculus with 20 samples.

Results

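Swim stress was set against the control condition over both genotypes at once, in all 20 arrays of the series. For each of 28767 probe sets, the groups of probes that stand for a transcript on the array, the difference of stress minus con was taken in KO and in WT mice and both differences were averaged. The arrays held RNA of the amygdala, left and right together, from 20 male C57BL/6 mice aged 7 months, with 1 mouse per array and 5 mice in each of the groups KO stress, KO con, WT stress and WT con. KO mice lacked 5-HTT, the serotonin transporter encoded by Slc6a4, throughout life and in every tissue, and WT mice carried the intact gene. Mice of all groups descended from heterozygous parents, were housed singly and had earlier been tested in the elevated plus-maze. Stress mice spent 1 min in water of 22 °C by the labels, and con mice spent 1 min undisturbed in the home cage. All mice then received isoflurane and were decapitated, so that the stress and con arrays have these steps in common.

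The amygdala attaches emotional value to sensory events and drives the hormonal and autonomic responses to threat. An acute stressor releases noradrenaline and, somewhat later, glucocorticoids, and within minutes neurons transcribe immediate early genes, which need no new protein to be switched on. The amygdala borders the temporal horn of the lateral ventricle, which holds choroid plexus, the tissue that secretes cerebrospinal fluid, and it lies next to cortex, thalamus and the coverings of the brain. Values below are log2 signals, and a difference is stress minus con unless another is named. In a dissected piece of tissue, fewer cells of a type and less RNA per cell cannot be told apart.

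Arrays differed from each other in ways that the groups do not name. Array medians were between 6.59 and 6.82, and pairs of arrays correlated at 0.948 to 0.996, with WT stress replicate 1 and WT con replicate 1 the least like the others. Of the markers of striatal and central amygdala neurons, 27 of 28 measured had a mean of 6 or more, as did 29 of 31 markers of pallial excitatory neurons and 21 of 23 of thalamic neurons. So did 39 of 44 markers of choroid plexus and all 22 of endothelium. A mean of 6 lies below the median of every array, so that these counts do not tell which cell types were present. The brightest probe set of the arrays lay at 13.72 to 13.82 in 6 arrays (3 stress, 3 con) and at 13.97 to 14.24 in the other 14 (7 stress, 7 con), and 813 probe sets differed between these sets of arrays at an adjusted p under 0.05 in limma. The 6 arrays were WT stress replicates 4 and 5, WT con replicates 4 and 5, KO stress replicate 5 and KO con replicate 5. The labels name no batch, and this split was found after the data were seen. Slc6a4 itself had 8.10 to 8.38 in KO stress, 8.11 to 8.20 in KO con, 6.30 to 6.55 in WT stress and 5.82 to 7.82 in WT con. All KO arrays were thus above all WT arrays, which is opposite to a lower signal of the targeted gene, and the sources used here do not place its probes relative to the deletion. Genotypes are called as the labels call them.

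Averaged over both genotypes, no transcript was set apart by stress at an adjusted p under 0.05. The smallest adjusted p over all probe sets was 1 (limma, Benjamini-Hochberg), and no probe set had all 10 stress arrays above or below all 10 con arrays. The criterion of the study asked for more than a 1.5-fold change and p under 0.05 before adjustment. It was met by 16 probe sets with higher values in stress (0.0556% of those tested) and by 0 with lower values. At an unadjusted p under 0.05 alone, 413 probe sets were higher (1.44%) and 66 lower (0.229%), 479 in all (1.67%), where 1438.4 would be expected by chance at that threshold. The same fit gave 39 higher (0.136%) and 1 lower (0.00348%) at the criterion in KO mice alone, and 64 higher (0.222%) and 5 lower (0.0174%) in WT mice alone.

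The excess of higher over lower values moved with the scaling of the arrays. Over all probe sets 60.6% of the averaged differences were above 0 and their median was 0.01. After quantile normalization the calls at an unadjusted p under 0.05 were 239 higher and 233 lower, and after each array was centred on its median they were 121 higher and 286 lower, against 413 and 66 in the values as deposited. The labels name no pairs, but WT arrays with the same replicate number deviated together in these data. Arrays with different numbers were not compared in this way. With same-numbered WT arrays as a block, a pairing taken from the data, the counts were 675 higher and 143 lower. The rule for naming genes gave 82 probe sets, and 68 of these were followed through the alternatives. None of the 68 turned its direction under either scaling.

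Stress took a small share of the spread between arrays. Of the sum of squares over all probe sets, 3.255% fell to stress averaged over genotypes, 4.41% to the interaction of genotype and stress, 8.73% to genotype and 83.6% to differences among arrays within groups. With random values the stress term, 1 of 19 degrees of freedom, would hold 5.26%. The KO and WT differences had SDs of 0.12 and 0.13 over probe sets and their mean had 0.08. Across probe sets, which are not independent replicates, the KO and WT differences correlated at r = -0.17 and had the same sign in 46.8%. No array is shared between the KO and the WT difference.

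**Figure D1:**
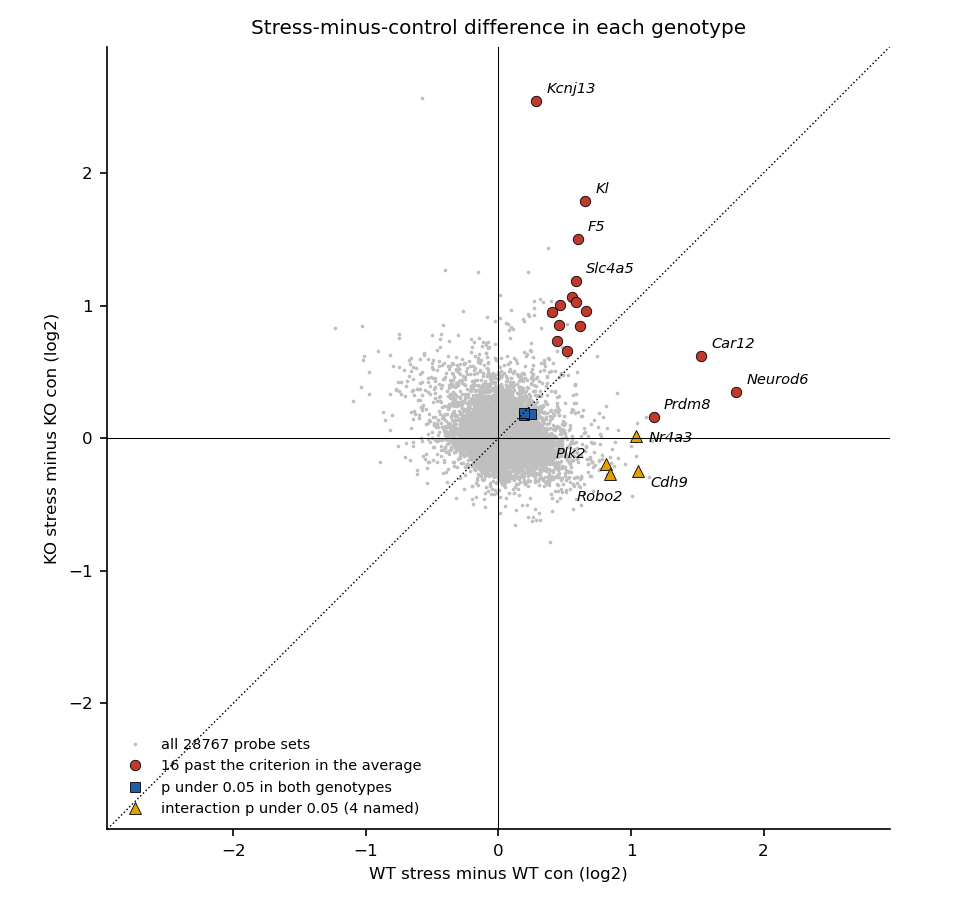
Difference of stress minus con in WT mice (x axis, log2) and in KO mice (y axis, log2) for all 28767 probe sets (grey), with the 16 probe sets past the criterion in the average (red circles), the 3 genes with higher values at p under 0.05 in both genotypes (blue squares) and 4 genes with an interaction p under 0.05 (yellow triangles). The dotted line marks equal differences. Most of the 16 lie above that line, Car12, Neurod6 and Prdm8 lie below it, and Piezo2, Mcm2 and Mylip lie on or near it at about 0.2.

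Genes of the choroid plexus led the averaged difference. Of 44 measured markers of this epithelium all 44 were higher in stress, with a median of 0.56, against 60.6% of all probe sets and a median of 0.01. Of these markers 15 reached an unadjusted p under 0.05 (1.44% of all probe sets did so in this direction) and 10 met the criterion. The study's own tables of the stress comparisons, chosen on these arrays, name 21 of the 44, so that the list is not independent of the result. The other 23 were also listed with earlier results of these data known, and were read on the same arrays. All 23 were higher, 3 at p under 0.05, with a median of 0.33. The list's median was 0.67 in KO mice and 0.33 in WT mice.

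Kcnj13, the potassium channel Kir7.1 of the choroid plexus membrane (gene ID 100040591, chromosome 1, 87384577 to 87394729 in GRCm38.p6), had the highest averaged difference of the array, 1.41 (SE 0.62). Its values were 9.27, 10.79, 6.89, 9.39 and 8.14 in KO stress, against 7.05, 5.61, 6.24, 6.09 and 6.78 in KO con. In WT stress they were 8.58, 6.14, 5.94, 11.57 and 6.12, against 7.47, 7.61, 7.49, 6.71 and 7.65 in WT con. In KO mice 4 of 5 stress arrays were above all con arrays, whereas in WT mice replicates 1 and 4 were above and replicates 2, 3 and 5 below all con arrays. The differences were 2.54 in KO and 0.28 in WT mice, with an interaction p of 0.083, and the averaged difference had an unadjusted p of 0.034 in limma (adjusted p = 1) and an exact stratified permutation p of 0.055, two-sided.

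Kl encodes klotho, a membrane protein that the choroid plexus sheds into cerebrospinal fluid. It had 8.80, 10.17, 6.74, 9.02 and 7.99 in KO stress, against 6.67, 6.65, 6.69, 6.68 and 7.10 in KO con. WT stress arrays had 8.02, 6.73, 6.66, 10.83 and 6.71, against 7.50, 7.70, 6.42, 6.87 and 7.18 in WT con. The KO con arrays hardly spread, 4 of 5 KO stress arrays lay above them all, and in WT mice only stress replicates 1 and 4 passed the con arrays. Averaged over genotypes, Kl differed by 1.22 (SE 0.48, unadjusted p = 0.020 in limma, adjusted p = 1), with 1.79 in KO and 0.65 in WT mice. F5, coagulation factor V, a known transcript of choroid plexus, followed the same arrays. Its averaged difference was 1.05 (SE 0.41), with 5.18, 6.37 and 9.0 as the lowest, median and highest stress value and 5.13, 5.47 and 6.03 in con. Slc4a5, a sodium bicarbonate cotransporter of the epithelium, differed by 0.88 (SE 0.38). Cldn2, the claudin that makes its tight junctions leaky to cations, differed by 0.81 (SE 0.35), and Tmem72 by 0.81 (SE 0.37).

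The remaining choroid plexus genes past the criterion were enzymes and a transporter. Abca4, a retinoid transporter, differed by 0.81 (SE 0.37), Ace, the angiotensin-converting enzyme, by 0.66 (SE 0.28) and Rdh5, a retinol dehydrogenase, by 0.59 (SE 0.24). Ace had 6.81, 7.70 and 9.72 as the lowest, median and highest stress value, against 7.02, 7.23 and 7.61 in con, and 6 of 10 stress arrays were above all con arrays. Cldn1, another claudin, and Pon3, a paraoxonase, were not on the marker list and differed by 0.73 (SE 0.34) and 0.59 (SE 0.27). Ttr, the transthyretin that carries thyroid hormone, on this list with a mean signal of 10.2, did not pass, and is named after its values were seen. Its averaged difference was 0.99 (SE 0.86, unadjusted p = 0.26 in limma), 2.57 in KO and -0.58 in WT mice.

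A score of each array, the mean over the list's members after each was centred on its mean over all arrays, showed which mice carried the signal. The choroid plexus score was 0.45, 1.23, -0.32, 0.52 and 0.14 in KO stress, against -0.45, -0.51, -0.33, -0.27 and -0.23 in KO con. It was 0.14, -0.44, -0.52, 1.82 and -0.30 in WT stress, against -0.16, -0.04, -0.38, -0.25 and -0.10 in WT con. The scores of 6 of 10 stress arrays were above those of all con arrays, WT stress replicate 4 and KO stress replicate 2 were highest by far, and WT stress replicates 2 and 3 were the lowest of the WT arrays. Without WT stress replicate 4 and KO stress replicate 2 together, 42 of the 44 markers were still higher, with a median of 0.23, and 5 probe sets met the criterion, 3 of them among the 16. In that fit Kcnj13 differed by 0.69 (unadjusted p = 0.095 in limma) and Kl by 0.64 (unadjusted p = 0.038). Without WT stress replicate 4 alone the list's median was 0.33. With the score as a covariate 8 probe sets met the criterion, 0 of them among the 16, but 10 of the 16 are members of the score, so that their loss follows largely from its construction. How much choroid plexus each dissected piece held was not measured, and its part in the result was not tested.

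**Figure D2:**
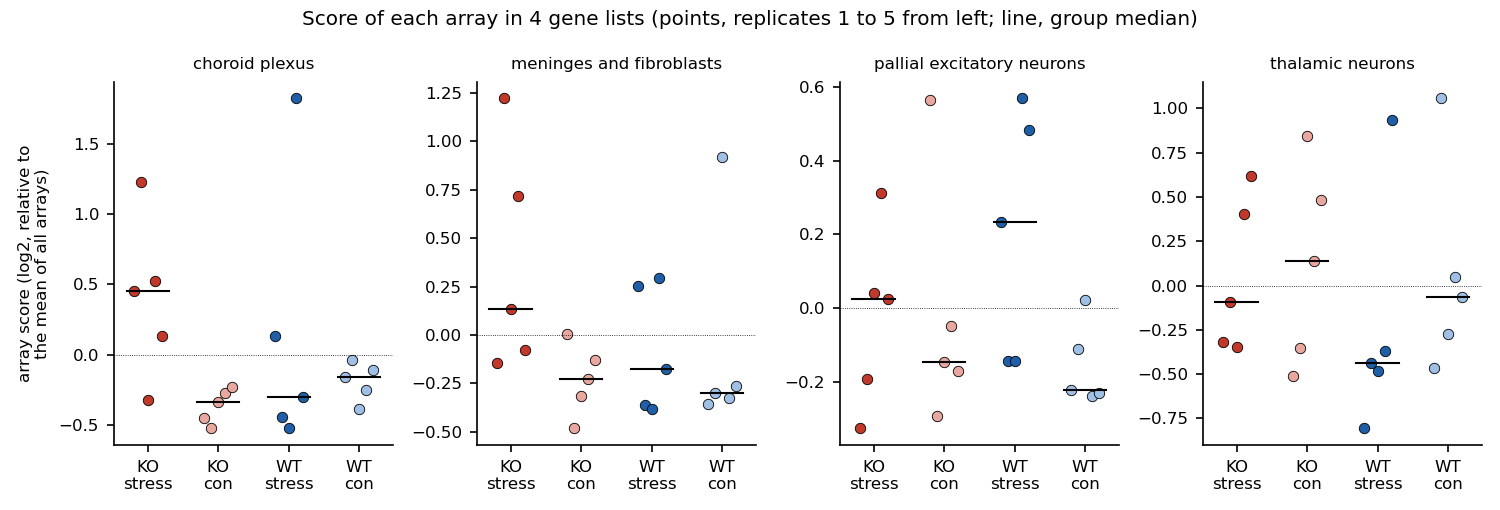
Score of each array (y axis, log2 relative to the mean of all arrays) in the lists of choroid plexus, meninges and fibroblasts, pallial excitatory neurons and thalamic neurons, by group (x axis). Points are the 5 arrays of a group in the order of their replicate number and lines are medians. The choroid plexus score reaches 1.82 in WT stress replicate 4 and 1.23 in KO stress replicate 2, and is below 0 in all 10 con arrays.

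Single arrays set how many genes met the criterion. The count of 16 became 4 when WT stress replicate 4 was left out, and 6 when KO stress replicate 2 was. It was 9 for KO stress replicate 4 and for WT con replicate 4, and 10 for KO con replicate 2. Leaving out WT stress replicate 3 gave 38, replicate 2 of that group gave 35 and its replicate 5 gave 26. Of the other arrays KO stress replicate 3 gave 33, WT con replicate 3 gave 30 and KO stress replicate 5 gave 27. All 16 were kept without KO stress replicate 3 or 5, or WT stress replicate 2 or 3. In none of these fits did a probe set reach an adjusted p under 0.05.

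**Figure D3:**
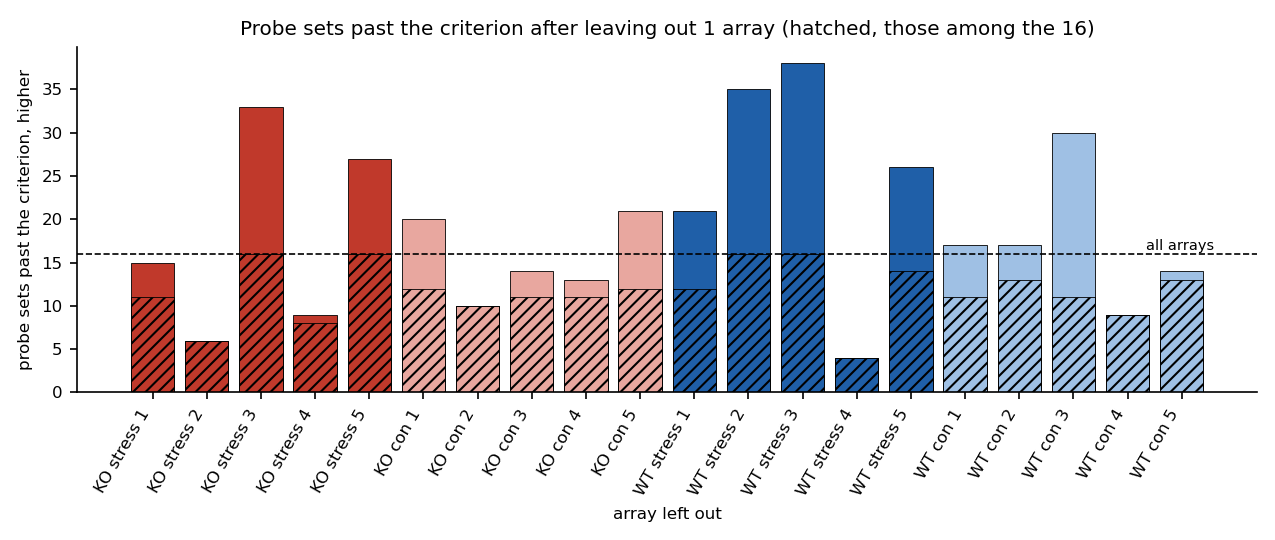
Number of probe sets past the criterion with higher values in stress (y axis) after leaving out the array named on the x axis, with the part that is among the 16 of all arrays hatched and the count of all arrays as a dashed line. Colours stand for the groups KO stress, KO con, WT stress and WT con from left to right. The counts run between 4 and 38.

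Transcripts of the meninges and their fibroblasts were higher as well, in 47 of 50 markers, with a median of 0.26, against 60.6% and 0.01 over all probe sets. That median was 0.14 without KO stress replicate 2 and 0.41 without WT con replicate 3. Of the 50, 3 reached an unadjusted p under 0.05 (1.44% of all probe sets did so in this direction). The study's stress lists, chosen on these arrays, name 7 of the 50. Among the other 43, 40 were higher, 2 at p under 0.05, with a median of 0.24. Col8a1, a short-chain collagen, differed by 0.73 (SE 0.29), Pcolce, an enhancer of procollagen cleavage, by 0.68 (SE 0.30) and Lum, the proteoglycan lumican, named after its values were seen, by 0.58 (SE 0.25). The list's median was 0.59 in KO mice and 0.01 in WT mice. Its score was highest in KO stress replicate 2, at 1.22, and in WT con replicate 3, at 0.92, a control array. Slc13a4, a sulfate transporter, had a difference of 0.74 (SE 0.39) and Igfbp2, an insulin-like growth factor binding protein, of 0.68 (SE 0.37), neither past the threshold. Fitted beside the meninges score, which holds Col8a1 and Pcolce, 8 probe sets met the criterion, 1 of them among the 16.

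Ciliated ependyma lines the ventricle beside the choroid plexus. Its 49 markers of motile cilia were higher in 46, but the median was 0.08 and none reached an unadjusted p under 0.05. The median was 0.31 in KO and -0.11 in WT mice. After centring on array medians it was 0.05 and after quantile normalization 0.05. Leaving out KO con replicate 1 gave 0.03, with 33 of 49 higher, WT con replicate 1 gave 0.04, with 36 of 49 higher, and WT stress replicate 4 gave 0.05. Leaving out KO con replicate 3, KO stress replicate 3 or WT con replicate 5 gave 0.13, WT stress replicate 3 gave 0.145 and KO con replicate 4 gave 0.17. Efhb, a protein of ciliary microtubules, differed by 0.33 (SE 0.17), and Dnali1, an axonemal dynein chain, by 0.31 (SE 0.25). Of the markers of pericytes and smooth muscle 13 of 14 were higher, with a median of 0.12, and of endothelium 18 of 22, with a median of 0.04.

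**Figure D4:**
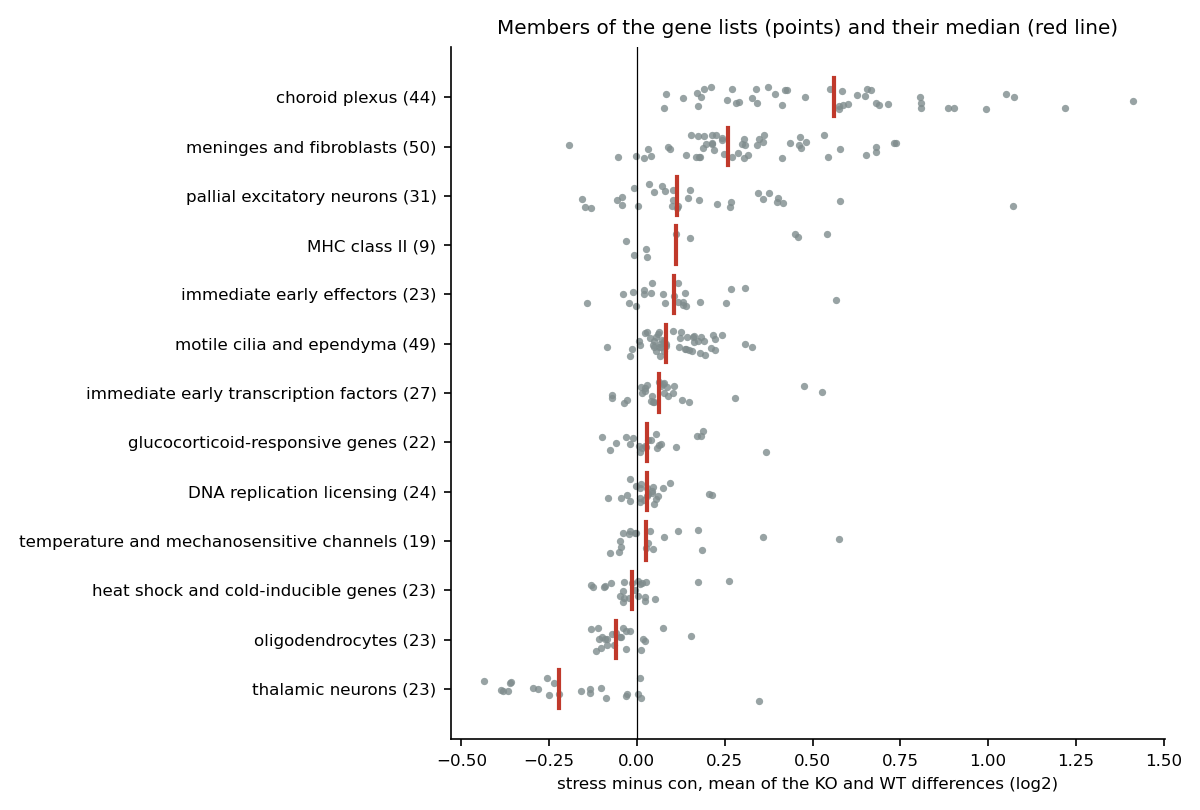
Averaged difference of stress minus con (x axis, log2) of the measured members of 13 gene lists (y axis, number of members in brackets). Points are genes and red lines are medians. All 44 choroid plexus points lie right of 0 with a median of 0.56, and thalamic markers have a median of -0.22.

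Car12, Neurod6 and Prdm8 had larger differences in WT than in KO mice, but none had an unadjusted interaction p under 0.05. Car12 and Prdm8 are on the study's WT stress list, chosen on these arrays. Car12, a membrane carbonic anhydrase that choroid plexus and some neurons express (gene ID 76459, chromosome 9, 66712296 to 66766845), had 8.31, 9.42, 7.35, 8.33 and 7.16 in KO stress, against 8.07, 7.81, 6.56, 6.79 and 8.24 in KO con. In WT stress it had 8.43, 8.05, 8.34, 10.16 and 7.47, against 8.28, 7.24, 6.53, 6.07 and 6.72 in WT con. All 10 stress arrays were above the con median, and 6 were above all con arrays. The averaged difference was 1.07 (SE 0.37, unadjusted p = 0.010 in limma, the smallest limma p of the 16, and exact permutation p = 0.015), and it was 0.62 in KO and 1.53 in WT mice (unadjusted p = 0.24 for the interaction).

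Neurod6 encodes a helix-loop-helix transcription factor of cortical and hippocampal excitatory neurons (gene ID 11922, chromosome 6, 55677818 to 55681263). Its values were 5.07, 5.22, 6.11, 6.50 and 5.09 in KO stress, against 6.06, 4.59, 4.87, 5.70 and 5.02 in KO con. They were 6.83, 5.22, 5.25, 9.09 and 8.32 in WT stress, against 4.88, 4.79, 6.27, 4.56 and 5.24 in WT con. WT stress replicates 4 and 5 stood far above every other array, 4 of 10 stress arrays were above all con arrays, and the other stress arrays overlapped con. The averaged difference was 1.07 (SE 0.44, unadjusted p = 0.025), 0.35 in KO and 1.79 in WT mice (unadjusted p = 0.12 for the interaction). Prdm8, a transcriptional repressor of developing and adult neurons, had 8.75 and 8.32 in WT stress replicates 4 and 5 and at most 6.99 in any other array. Both replicates are among the 6 arrays with the lower brightest probe set, and no other WT stress array is. The averaged difference of Prdm8 was 0.66 (SE 0.25), 0.16 in KO and 1.17 in WT mice (unadjusted p = 0.061 in limma for the interaction).

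The wider list of pallial excitatory neurons had 24 of 31 markers higher, with a median of 0.11, and a median of -0.06 in KO and 0.28 in WT mice. Without KO con replicate 1 the averaged median was 0.20. Neurod6 and Cdh9 were the 2 that reached an unadjusted p under 0.05. The study's stress lists, chosen on these arrays, name 3 of the 31, Cdh9 among them. Among the other 28, 21 were higher, with a median of 0.10. Slc17a7, the vesicular glutamate transporter of these neurons, ranged from 7.08 to 11.04 in stress and from 6.92 to 11.04 in con, with a difference of 0.58 (SE 0.54). Its arrays thus spanned nearly the whole range in either condition. Nptx1, a neuronal pentraxin, differed by 0.42 (SE 0.28). The pallial score was highest in WT stress replicate 4 (0.57), KO con replicate 1 (0.565) and WT stress replicate 5 (0.48), and with this score, which holds Neurod6, as a covariate 7 probe sets met the criterion, 1 of them among the 16.

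Markers of thalamic neurons went the other way, lower in 19 of 23, with a median of -0.22. None reached an unadjusted p under 0.05. Ntng1, the netrin G1 of thalamic axons, differed by -0.44 (SE 0.37), with 7.82, 8.38 and 10.20 as the lowest, median and highest stress value and 8.05, 9.04 and 10.47 in con. Slc17a6, the glutamate transporter of subcortical neurons, ranged from 7.23 to 11.17 in stress and from 8.64 to 11.13 in con, and Tnnt1, a troponin, differed by -0.39 (SE 0.22). The thalamic score was highest in WT con replicate 2 (1.06), WT stress replicate 5 (0.94) and KO con replicate 3 (0.85), so that high arrays were found in both conditions. Single arrays moved the thalamic median, to -0.06 when WT con replicate 2 was left out, to -0.11 for WT stress replicate 1 and to -0.33 for WT stress replicate 5. It became -0.14 when KO con replicate 3, KO con replicate 5 or KO stress replicate 1 was left out. Oligodendrocyte markers were lower in 18 of 23, with a median of -0.06 and none at p under 0.05. Without WT stress replicate 1 the direction of the oligodendrocyte list turned, with 13 of 23 higher and a median of 0.01. Its median became -0.01 when KO stress replicate 3 was left out, -0.03 for KO con replicate 3 and for WT con replicate 4, -0.11 for KO stress replicate 5 and -0.09 for WT stress replicate 2.

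**Figure D5:**
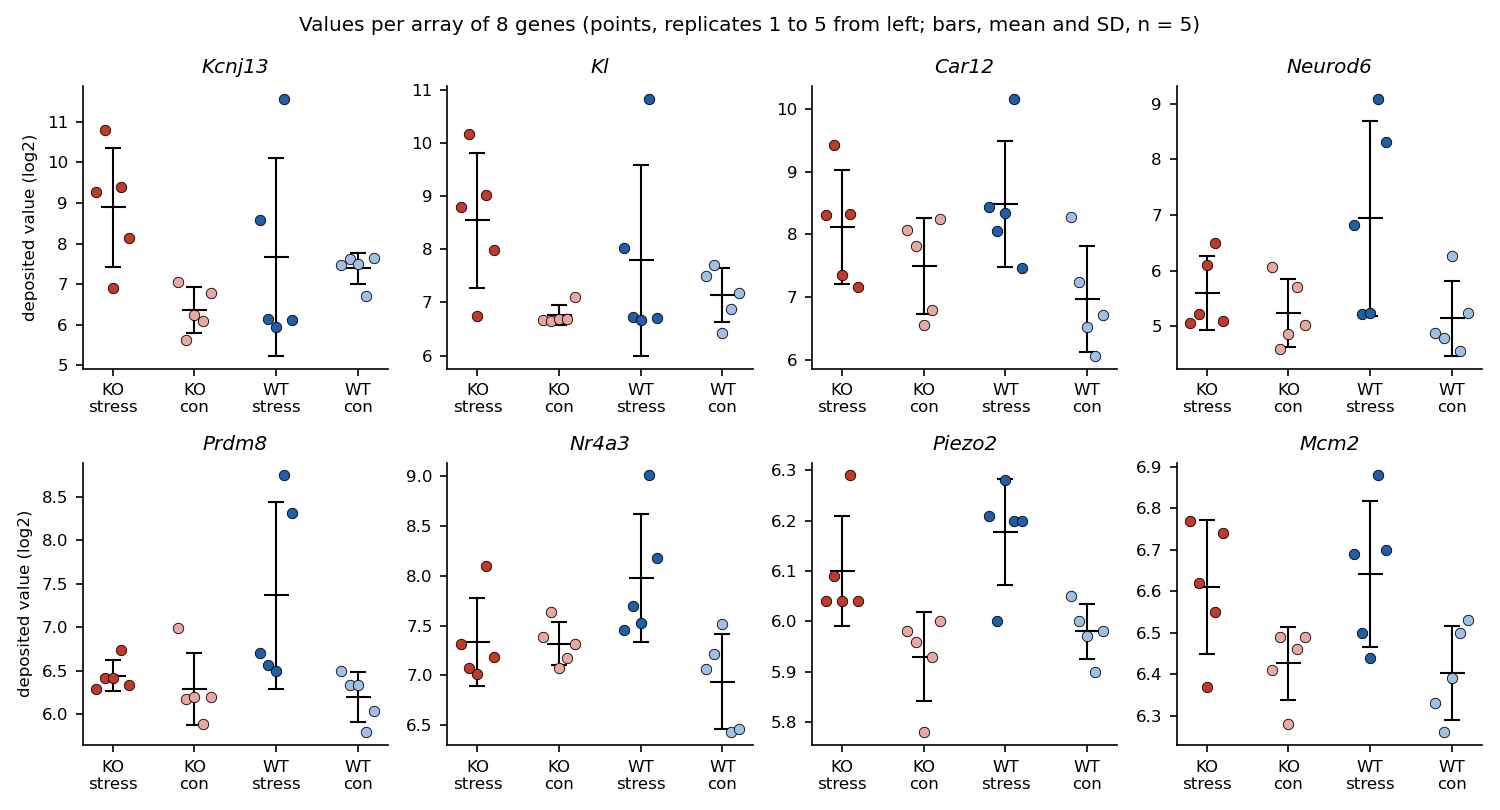
Deposited values (y axes, log2, with a range of its own for each gene) of 8 genes in KO stress, KO con, WT stress and WT con (x axis). Points are the 5 arrays of a group in the order of their replicate number, and bars are the mean and SD. Kcnj13 and Kl are highest in WT stress replicate 4 and KO stress replicate 2, Neurod6 and Prdm8 in WT stress replicates 4 and 5, and the values of Piezo2 and Mcm2 spread by less than 1.

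A few genes had small differences that were nearly equal in both genotypes, a likeness that follows in part from how they were chosen. They were picked for an unadjusted p under 0.05 in limma in the same direction in KO and in WT mice. Of the 21776 probe sets with a single symbol, 3 met this rule, namely Piezo2, Mcm2 and Mylip. Whether 3 is more than chance would give was not tested. Over all probe sets, calls at an unadjusted p under 0.05 in the average were fewer than expected by chance, 479 against 1438.4. Piezo2, a mechanically gated cation channel of touch and proprioceptive neurons, had 6.04, 6.09, 6.04, 6.29 and 6.04 in KO stress, against 5.98, 5.96, 5.78, 5.93 and 6.00 in KO con. It had 6.21, 6.00, 6.28, 6.20 and 6.20 in WT stress, against 6.05, 6.00, 5.97, 5.90 and 5.98 in WT con. All KO stress arrays were above all KO con arrays, and 4 of 5 WT stress arrays were above all WT con arrays. The averaged difference was 0.18 (SE 0.04), 0.17 in KO and 0.19 in WT mice. Its unadjusted p in limma, 0.00047, was the smallest of the array (adjusted p = 1), and its exact permutation p was 0.00019, where the smallest possible is 3.15e-05. Without any 1 array the difference was 0.16 to 0.21, and with the choroid plexus score as a covariate it was 0.17. The mean signal of its probe set was 6.05, and 3 stress arrays carried the same value, 6.04.

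Mcm2, a subunit of the helicase that licenses DNA replication (gene ID 17216, chromosome 6, 88883474 to 88898780), had 6.77, 6.62, 6.37, 6.55 and 6.74 in KO stress, against 6.41, 6.49, 6.28, 6.46 and 6.49 in KO con. WT stress arrays had 6.69, 6.50, 6.44, 6.88 and 6.70, against 6.33, 6.26, 6.39, 6.50 and 6.53 in WT con. Of the stress arrays 7 of 10 were above all con arrays. The averaged difference was 0.21 (SE 0.06, unadjusted p = 0.0027, exact permutation p = 0.0029), 0.18 in KO and 0.24 in WT mice. Mcm6, another subunit of the helicase, differed by 0.21 (SE 0.09), 0.20 in KO and 0.21 in WT mice. These were the 2 of 24 licensing genes at an unadjusted p under 0.05 (1.44% of all probe sets in this direction). The list was higher in 18 of 24 with a median of 0.03, against 60.6% and 0.01 over all probe sets. Mylip, a ubiquitin ligase that degrades the LDL receptor, differed by 0.19 in KO and 0.19 in WT mice (SE of the average 0.06). Its stress values ran between 7.33 and 7.88 and its con values between 7.23 and 7.57. With the choroid plexus score as a covariate the difference of Mylip was 0.135 (unadjusted p = 0.068 in limma).

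Other genes with the smallest p were likewise small in size. Pgf, placental growth factor, a ligand of the VEGF receptor Flt1, differed by 0.27 (SE 0.07, unadjusted p = 0.0011), with all 10 stress arrays above the con median. Sntb2, the scaffold protein syntrophin, differed by 0.38 (SE 0.105), 0.19 in KO and 0.58 in WT mice. Tnpo1, the nuclear import receptor transportin, differed by 0.24 (SE 0.07), and 6 of 10 stress arrays were above all con arrays. Ggt5, a gamma-glutamyltransferase that cleaves leukotriene C4, differed by 0.24 (SE 0.07), Cpxm1, a carboxypeptidase-like secreted protein, by 0.19 (SE 0.05), and Angel1 by 0.11 (SE 0.03). C230030N03Rik, a transcript without an assigned role here, differed by 0.21 (SE 0.05), 0.28 in KO and 0.13 in WT mice. Neurod4, a transcription factor of neuronal differentiation, differed by 0.17 (SE 0.05) near the lower limit of the array, where 9 of 20 arrays carried the value 4.64.

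Among lower values, Hspe1 was measured by 2 probe sets that moved together. It encodes the mitochondrial chaperonin of the Hsp10 type, the partner of Hspd1. One had 9.12, 9.23 and 9.46 as the lowest, median and highest stress value and 9.28, 9.39 and 9.52 in con, a difference of -0.14 (SE 0.05, unadjusted p = 0.0076), with 6 of 10 stress arrays below all con arrays. The other differed by -0.13 (SE 0.05). The differences were -0.11 in KO and -0.18 in WT mice for the first probe set, and -0.06 in KO and -0.20 in WT mice for the other.

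Nsg1, a neuronal protein of endosomal receptor recycling, differed by -0.21 (SE 0.08), and Vgf, the precursor of secreted neuropeptides, by -0.19 (SE 0.08). Of the stress arrays 5 of 10 were below all con arrays for Vgf and 3 of 10 for Nsg1. Krtap4-1, a keratin-associated protein of hair, had the smallest p among lower genes, with a difference of -0.19 (SE 0.05, unadjusted p = 0.0033), and Fam207a differed by -0.14 (SE 0.05). Osbpl10, an oxysterol-binding protein, differed by -0.12 (SE 0.05) and 2310011J03Rik by -0.11 (SE 0.03). Smc1b, a meiotic cohesin subunit, and Bicdl2, a dynein adaptor, differed by -0.105 (SE 0.04) and -0.08 (SE 0.03). Smc1b carried the value 5.10 in 12 arrays (8 stress, 4 con) and Bicdl2 the value 5.58 in 10 arrays (7 stress, 3 con). Of 205 probe sets of cytoplasmic ribosomal proteins, 180 were lower, with a median of -0.05, while olfactory and vomeronasal receptors, silent in brain as a rule, were higher in 835 of 1209, with a median of 0.02. With probe sets split by mean level into 5 equal parts, the median difference was 0.01 in the dimmest part, 0.03 in the second and the third, 0.01 in the fourth and -0.01 in the brightest.

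Of 27 immediate early transcription factors 23 were higher, with a median of 0.06, and of 23 effectors 18, with a median of 0.10, against 60.6% and 0.01 over all probe sets. After each array was centred on its median, 18 of 27 and 16 of 23 were higher. Without KO stress replicate 4 the medians were 0.03 and 0.07, without WT con replicate 4 that of the transcription factors was 0.04, and without WT stress replicate 4 that of the effectors was 0.06. Nr4a3, an orphan nuclear receptor, was the only 1 of these 50 genes at an unadjusted p under 0.05. The study's stress lists, chosen on these arrays, name 2 of the 27, Nr4a3 among them, and 1 of the 23. Without the listed genes 21 of 25 and 17 of 22 were higher, with medians of 0.05 and 0.09.

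Nr4a3 carries 3 copies of TGACGT, letters of the cAMP response element that many immediate early genes carry, in the RefSeq promoter window of GRCm38.p6. They are shown in capitals because Nr4a3 had the smallest p of its class. The stretches are chr4:48045065-48045089, chr4:48045091-48045115 and chr4:48045149-48045173 on the plus strand. The copies start 231, 205 and 147 bases before the transcript start used for the window, 48045305. RefSeq also annotates the gene from 48045078 on, so that the second and the third copy lie inside its annotated span.
Nr4a3 match 1: ggaggagggTGACGTagcgtcccat
Nr4a3 match 2: tcgtcacatTGACGTctcgcattcc
Nr4a3 match 3: tggcataaaTGACGTgccgagagag
Counting each gene by its window with the most copies, TGACGT stood on either strand in 8.37% of 27025 genes, and 3 or more copies in 0.226%. Counted the same way, 8 of 20 immediate early transcription factors with a window held it, and 10 of 17 effectors. Windows were 300 bases long. A match is a description of letters and not of a bound site.

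Nr4a3 values were 7.32, 7.07, 7.01, 8.10 and 7.19 in KO stress, against 7.39, 7.64, 7.07, 7.18 and 7.32 in KO con. They were 7.46, 7.70, 7.53, 9.01 and 8.18 in WT stress, against 7.06, 7.22, 7.52, 6.43 and 6.46 in WT con. In WT mice 4 of 5 stress arrays were above all con arrays, and in KO mice only stress replicate 4 was. The averaged difference was 0.53 (SE 0.20, unadjusted p = 0.016), 0.02 in KO and 1.04 in WT mice, and the interaction had an unadjusted p of 0.019 (adjusted p = 1). With the choroid plexus score as a covariate the averaged difference was 0.31 (unadjusted p = 0.145 in limma).

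The related receptors Nr4a2 and Nr4a1 differed by 0.48 (SE 0.28) and 0.28 (SE 0.21), without passing the threshold. Egr3, a zinc finger factor, differed by 0.15 (SE 0.13) and Fos, a subunit of AP-1 named after its values were seen, by 0.10 (SE 0.13). Of the effectors, Ptgs2, the inducible cyclooxygenase, differed by 0.57 (SE 0.31), -0.02 in KO and 1.16 in WT mice. Inhba, a subunit of activin, differed by 0.27 (SE 0.13) and Nptx2, a synaptic pentraxin, by 0.25 (SE 0.22). Plk2, a polo-like kinase of synapses, differed by 0.31 (SE 0.17), with -0.19 in KO and 0.81 in WT mice (unadjusted p = 0.0099 for the interaction).

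Of the genes that respond to glucocorticoids, 16 of 22 were higher, with a median of 0.03. Zbtb16, a zinc finger repressor, differed by 0.37 (SE 0.16), with 9.57 and 9.18 in WT stress replicates 4 and 5 and at most 8.80 elsewhere. Cebpd, a leucine zipper factor, differed by 0.18 (SE 0.06, unadjusted p = 0.0067), with 6 of 10 stress arrays above all con arrays at a low mean of 5.55. Of all arrays 6 carried the same value of Cebpd, 5.49 (2 stress, 4 con). Sgk1, a kinase that these hormones induce, differed by 0.17 (SE 0.11), -0.09 in KO and 0.43 in WT mice. Bcl6, a repressor, differed by 0.19 (SE 0.15), and Tsc22d3, a glucocorticoid-induced leucine zipper protein named after its values were seen, by -0.10 (SE 0.06).

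Heat shock and cold-inducible genes were higher in 10 of 23 and lower in 13, with a median of -0.02. The split moved with the scaling, to 7 of 23 higher after quantile normalization and 3 of 23 after centring on array medians. It also moved with single arrays, between 6 of 23 higher without WT con replicate 1 or WT stress replicate 4 and 15 of 23 higher without WT stress replicate 1, where the median was 0.03. Hspb8, a small heat shock protein, differed by 0.26 (SE 0.12, unadjusted p = 0.042), Bag3, its co-chaperone, by 0.18 (SE 0.10), and Cirbp, the cold-inducible RNA binding protein, by -0.13 (SE 0.08). Of 19 channels that sense temperature or force, 10 were higher and 9 lower. Besides Piezo2, Trpv4, an osmosensitive channel of the choroid plexus, reached an unadjusted p under 0.05 in limma, with 0.58 (SE 0.26). It did not meet the criterion. Trpv4 is also on the choroid plexus marker list and on the study's KO stress list, chosen on these arrays. Leaving out 1 array at a time, its p was 0.05 or more in 14 fits. Trpm3, a heat-gated channel, differed by 0.36 (SE 0.18), and by -0.004 with the choroid plexus score as a covariate.

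MHC class II genes, which present antigen on macrophages and dendritic cells, had 7 of 9 members higher (60.6% of all probe sets) and 3 at an unadjusted p under 0.05 in that direction (1.44% of all probe sets). The study's KO stress list, chosen on these arrays, names 2 of the 9, H2-Aa and Cd74. Among the other 7, 5 were higher, 1 at p under 0.05, with a median of 0.03. H2-Aa, an alpha chain, had 5.85, 6.16 and 7.42 as the lowest, median and highest stress value, against 5.32, 5.72 and 6.64 in con. All 10 stress arrays were above the con median and 3 above all con arrays. H2-Aa differed by 0.54 on average (SE 0.19), 0.89 in KO and 0.20 in WT mice. The beta chain H2-Ab1 differed by 0.45 (SE 0.20) and the invariant chain Cd74 by 0.46 (SE 0.21). For Cd74 the differences were 0.90 in KO and 0.01 in WT mice. Microglial markers were higher in 9 of 20, with a median of -0.01. Fitted beside the meninges score, the difference of H2-Aa was 0.28 (unadjusted p = 0.016 in limma), and beside the choroid plexus score it was 0.325 (unadjusted p = 0.11).

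Of the genes that the study followed by real-time PCR, Ace is given above, Cdh9, Robo2 and Anxa1 follow, and another is not analysed here. Cdh9, a cadherin of excitatory neurons, differed by 0.40 (SE 0.18, unadjusted p = 0.042, exact permutation p = 0.12), with -0.25 in KO and 1.05 in WT mice. The interaction of Cdh9 had an unadjusted p of 0.0024 (adjusted p = 1). Robo2, a receptor of Slit ligands in axon guidance, differed by 0.28 (SE 0.20), with -0.27 in KO and 0.84 in WT mice (unadjusted p = 0.013 for the interaction). Anxa1, an annexin that glucocorticoids induce, differed by 0.43 (SE 0.25), with 0.88 in KO and -0.03 in WT mice (unadjusted p = 0.080 for the interaction). Over all probe sets 724 had an interaction p under 0.05 (2.52%), 53 of them among the 479 of the average and 0 among the 16, and 0 at an adjusted p under 0.05.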

How the data were processed

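Amygdala RNA of 20 mice was hybridised to Affymetrix Mouse Gene 1.0 ST arrays, 1 mouse per array. The deposited log2 values were made by the authors with ExonRMA in ArrayAssist, followed by variance stabilization. The methods state a log scale without its base, which was taken as 2 from the range of values, 4.09 to 14.24. Arrays hold no read depth, and their number limits the precision. The labels name separate mice. Of 28767 probe sets, the platform annotation gives 21776 a single symbol, 1618 several and 5373 none, and only those with a single symbol are named.

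Group means were fitted in limma (version 3.58.1, R 4.3.3) with eBayes and Benjamini-Hochberg adjustment over all probe sets, after the fit was tested on simulated data. The averaged contrast weighted KO and WT equally. Permutation tests were exact, two-sided and stratified by genotype (63504 assignments). A gene on a list was represented by its brightest probe set. Members, lists and tests were chosen with earlier results of these data known.

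Genes were named by rule: Slc6a4, those past the criterion, the 10 with the smallest p in each direction, those at p under 0.05 in both genotypes, the real-time PCR genes, and up to 4 members of a described list with the largest differences. All same-numbered WT arrays deviated together (r = 0.162 to 0.42). Of the KO pairs 2 of 5 did (r = 0.241 and 0.262) and the others had r = -0.0313 to 0.027. Correlations of arrays with different numbers were not computed. Since every pair had to exceed 0.1, only WT numbers were used as pairs, the data being the source of the pairing. Alternatives changed the test, the scaling, filters, weights, blocks, covariates and the arrays included. Promoter windows (250 bases before to 50 after a transcript start) and gene coordinates are those of RefSeq for GRCm38.p6.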

Additional observations from a re-analysis of the deposited data

Results flagged for a closer look

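In 39 of 324 groups of 5 arrays, over 68 named genes and 13 lists, 1 array lay apart from the other 4, the gap to its nearest neighbour exceeding 0.71 of the group's range. Chance flags about 1 in 20 groups, 16.2 here, and genes of a list share their arrays. WT stress replicate 4 was the highest array for Pon3 (0.864 of the range), Cldn1 (0.816), Cd74 (0.807), Rdh5 (0.791), Cldn2 (0.774), Trpm3 (0.751), F5 (0.744), Abca4 (0.724), Ace (0.722), Tmem72 (0.71) and the choroid plexus score (0.719). KO stress replicate 4 was the highest for Neurod4 (0.89), Piezo2 (0.827), Zbtb16 (0.789), Nr4a2 (0.787), Nr4a3 (0.713), Prdm8 (0.713) and the score of immediate early transcription factors (0.768). KO stress replicate 2 was the highest for Cldn1 (0.751) and KO stress replicate 1 for Bicdl2 (0.799).

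Control arrays stood apart as well. WT con replicate 3 was the highest for Slc13a4 (0.909), Igfbp2 (0.867), Pcolce (0.735) and the meninges score (0.928). KO con replicate 5 was the highest for Smc1b (0.983) and Kl (0.919) and the lowest for Cebpd (0.938). KO con replicate 1 was the highest for Ptgs2 (0.857) and the pallial score (0.716), KO con replicate 3 for Tnnt1 (0.74), and KO con replicate 4 was the lowest for 2310011J03Rik (0.748). WT con replicate 4 was the lowest for Kcnj13 (0.812) and WT con replicate 1 for the heat shock score (0.766). Of the other WT stress arrays, replicate 5 was the highest for Tnnt1 (0.726) and the thalamic score (0.75), replicate 2 was the highest for Smc1b (0.979) and the lowest for Piezo2 (0.717), and replicate 1 was the lowest for Bcl6 (0.748) and the oligodendrocyte score (0.724).

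The KO and WT responses of 6 named genes differed at an unadjusted interaction p under 0.05 in limma, none at an adjusted p under 0.05. Over all probe sets 724 had such an interaction p (2.52%). Of the 6 genes, Cdh9, Robo2, Nr4a3 and Plk2 are on the study's WT stress list and Cd74 on its KO list. Those lists were chosen on these arrays by a difference within a genotype, so that the interactions are not independent of that choice. The KO response minus the WT response was -1.30 for Cdh9, -1.11 for Robo2, -1.02 for Nr4a3, -1.0 for Plk2, -0.52 for Sgk1 and 0.89 for Cd74.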

How the results depend on the processing

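No alternative gave a probe set with an adjusted p under 0.05 in limma. Among alternatives with more than 1 array in each group, the smallest adjusted p was 0.642, without WT con replicate 3. Against 16 higher and 0 lower at the criterion and 413 higher and 66 lower at an unadjusted p under 0.05 in the values as reported, these counts moved by over 1.5 times as follows, and the causes were not tested. At the criterion, the higher count was 10 with the Welch test, 29 with folds of linear means, 8 with the choroid plexus score, 8 with the meninges score and 7 with the pallial score as a covariate. At p under 0.05, quantile normalization gave 239 higher and 233 lower, and centring arrays on their medians 121 and 286. These scalings moved the median of all probe sets to -0.00339 and -0.023. Only probe sets with a mean of 6 or more gave 213 and 31, from fewer probe sets tested, with 19 higher at the criterion. Array weights gave 208 lower, the choroid plexus covariate 39 lower and the meninges covariate 181 higher. Without WT stress replicate 1 and WT con replicate 1 together, 230 were lower.

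A block of replicate numbers in all groups left 176 lower, and with WT pairs as a block 675 were higher and 143 lower at p under 0.05, with 17 and 22 higher at the criterion.

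Alternatives chosen after seeing the data were these. In the 14 arrays with the higher brightest probe set, 9 were higher and 4 lower at the criterion, and 887 and 171 at p under 0.05. In the other 6 arrays these counts were 145 and 134, and 1389 and 1547. Without WT stress replicate 4 and KO stress replicate 2 together, 5 were higher at the criterion and 39 lower at p under 0.05.

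Leaving out 1 array at a time, the criterion count was 4 (without WT stress replicate 4) to 38 (without WT stress replicate 3) higher and 0 to 1 lower, and the count at p under 0.05 was 243 (without KO stress replicate 4) to 592 (without WT con replicate 3) higher and 43 (without WT stress replicate 4) to 162 (without WT stress replicate 1) lower.

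Of 2693 values of 68 named probe sets, 2278 kept their direction and their side of the unadjusted threshold, 348 lost that side, 60 gained it and 7 turned direction. With the choroid plexus covariate Pon3 became -0.003, Trpm3 -0.004 and Igfbp2 -0.046. In the 6 arrays with the lower brightest probe set Tnnt1 became 0.065, Ntng1 0.18 and Grid2ip 0.528. There the KO difference is that of 1 array against 1. In the other 14 arrays Slc17a7 became -0.048. Dim probe sets limit what can be measured, since 21.7% of probe sets carried 1 value in 5 or more arrays, with a median level of 4.96.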
